A study of Glycine max with 16 samples.

Results

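Heat and water shortage that reach a soybean plant late in seed filling act on seeds that are still green and full of storage reserves. The comparison described here is that of whole seeds at stage R6, the stage at which green seeds fill the pod, between plants under combined stress and plants kept without stress. It rests on the 6 arrays of R6 seeds out of the 16 arrays of the series (3 stressed and 3 non-stressed), chosen by their labels alone, and on the probe sets designed for soybean. Seeds were of the cultivar MG/BR 46 (Conquista), which the study calls susceptible to chlorophyll retention, and each sample held seed coat and embryo together. Plants of both groups grew in a polytunnel with free water at an average of 24.7 °C. At stage R5.5 the plants of the stressed group went to a greenhouse averaging 39.5 °C by day, where they were given water only once they wilted, while the non-stressed group stayed in place. Every pot held 4 plants, 6 pots were harvested per stage and condition, and pots were joined 2 by 2 into the 3 biological replicates. Heat, drought and the change of place began together, so their effects cannot be told apart, and the stressed R6 seeds are those of 1 cultivar. Both groups are labelled R6, and whether they differed in maturity within that stage was not tested.

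At this age the embryo of a legume seed makes storage proteins, oil and protective proteins at a high rate, while the seed coat unloads sugars and amino acids for it and lays down its own pigments and surface proteins. Heat leads plant cells to make heat shock proteins, which keep other proteins folded, under the control of heat stress transcription factors. Water shortage acts through abscisic acid and through DREB and NAC factors, and soybean tissues under attack or stress make isoflavonoids and the pterocarpan phytoalexins called glyceollins. Whole seeds were ground, so less RNA from a tissue and less RNA per cell cannot be told apart in any of the values below.

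One stressed sample stood apart from the others before any gene was considered. Signals are given on the log2 scale throughout, and ran from -0.83 to 13.28 over all arrays. Over the soybean probe sets, stressed replicates 1 and 2 correlated with each other at 0.994, stressed replicate 3 correlated with them at 0.958 and 0.959, and the non-stressed arrays correlated with each other at 0.989 to 0.994. On the first principal component of the 6 arrays, with 76.6% of the variance, the non-stressed arrays lay at -61.8 to -53.7 and the stressed arrays at 44.8 to 67.2. The second, with 16.7%, held stressed replicate 3 at 57.7 and the other 5 arrays at -24.0 to 2.13. Replicate 3 lay more than 1 above the mean of stressed replicates 1 and 2 for 355 of the probe sets kept and more than 1 below it for 1142. Each result below is therefore given with and without that array where it matters. The signal for the 3′ end of GAPDH exceeded its middle by 0.45 to 0.53 in non-stressed and by 0.72 to 0.80 in stressed samples, and that of actin exceeded its 5′ end by 2.25 to 2.44 and by 2.50 to 2.69. Ubiquitin went the other way, its 3′ end minus its 5′ end being 0.15 to 0.18 in non-stressed and -0.16 to -0.04 in stressed samples. The part of these differences in the results below was not tested.

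**Figure D1:**
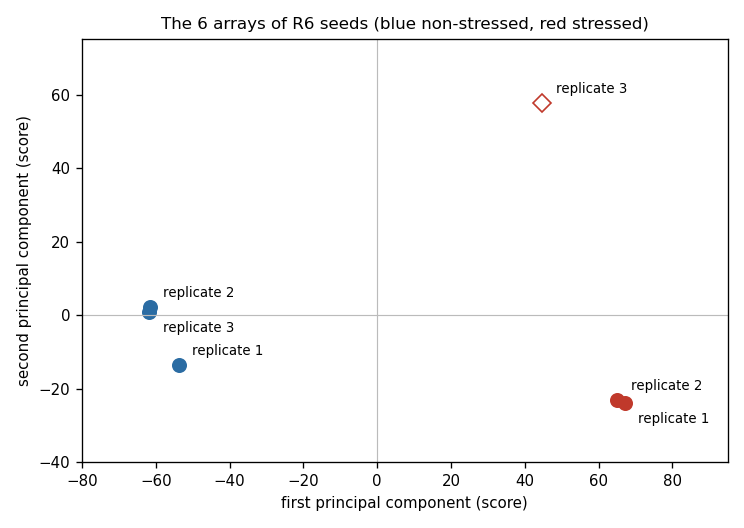
Scores of the 6 arrays of R6 seeds on the first (x axis, 76.6% of the variance) and second principal component (y axis, 16.7%) of the soybean probe sets, blue for non-stressed and red for stressed, with stressed replicate 3 as an open diamond. The groups separate along the x axis, and stressed replicate 3 lies at 57.7 on the y axis, above the other 5 arrays.

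The stress response at R6 was broad and almost even in its directions. Of 19194 soybean probe sets whose mean signal exceeded 3 in 1 condition or more, 2856 (14.9%) were called, that is, passed limma's test at p up to 0.05 after Benjamini-Hochberg adjustment, with a change of at least 2-fold. Of these 1448 (7.54%) were higher and 1408 (7.34%) lower in stressed seeds. A change of 4-fold or more was found for 372 of the higher and 297 of the lower probe sets. All 3 stressed arrays lay above all 3 non-stressed arrays for 25.5% of the probe sets and below them for 28.2%. Without stressed replicate 3 more probe sets passed, 3659 (19.1%), with 1996 (10.4%) higher and 1663 (8.66%) lower. Both counts share 2693 probe sets, 163 were lost and 966 gained, and none changed sign. Among 697 measured genes that have a name, 153 (22%) were called, 69 of them higher (9.9%) and 84 lower (12.1%). Members of the gene groups below are named genes, each counted by 1 probe set, that of highest mean signal where a gene has several. The shares of named genes are therefore the background for their counts. The median log2 fold change was -0.01 over named genes and 0.03 over all probe sets kept. A count near these shares, such as 2 of 18 fatty acid and oil genes or 1 of 10 cyclophilins called lower, does not set a group apart.

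The 4 largest rises among named genes started from low signals in non-stressed seeds. CYP82A2, a cytochrome P450, lay at 1.75, 1.46 and 1.49 on the non-stressed and 6.63, 6.17 and 7.69 on the stressed arrays. It was 38.2-fold higher under stress (log2 fold change 5.26 with a standard error of 0.33, adjusted p = 1.0e-06), and its 3 probe sets gave log2 fold changes of 4.84 to 5.45, though the one that stands for it also matches related transcripts. ICL1, isocitrate lyase, which lets the glyoxylate cycle turn the carbon of stored oil into sugars, gave 1.91, 1.41 and 1.67 on the non-stressed and 6.99, 6.78 and 6.40 on the stressed arrays. The rise was 33.4-fold (log2 fold change 5.06 with a standard error of 0.20, adjusted p = 3.8e-08), and no non-stressed array was above 1.91. OLPa, an osmotin-like protein of the class made under osmotic stress and attack, gave 2.12, 2.05 and 1.72 on the non-stressed and 6.34, 5.90 and 7.33 on the stressed arrays, a rise of 23.6-fold (log2 fold change 4.56 with a standard error of 0.31, adjusted p = 2.0e-06). In all 3 genes the groups were far apart, and stressed replicate 3 was the highest array for CYP82A2 and OLPa and the lowest of the stressed arrays for ICL1. SHOOT2, for which the tables give no role, rose by 5.24 on the log2 scale (standard error 0.28).

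Transcription factors and a receptor were also among the largest rises. BZIP110 rose 10.8-fold, from 4.75, 4.4 and 4.20 to 7.76, 7.73 and 8.15 (log2 fold change 3.43 with a standard error of 0.15, adjusted p = 9.9e-08), and all 3 of its probe sets were called. DREB2A2, of the family that binds the dehydration-responsive element, went from 5.74, 5.67 and 5.73 to 8.42, 8.53 and 8.83 (log2 fold change 2.88 with a standard error of 0.11, adjusted p = 2.9e-08). Its non-stressed arrays lay between 5.67 and 5.74, and stressed replicate 3 was the highest. ETR2, an ethylene receptor, went from 5.18, 5.04 and 5.05 to 8.01, 7.90 and 7.73, a rise of 6.91-fold (log2 fold change 2.79 with a standard error of 0.16, adjusted p = 4.7e-07). BFT, of the PEBP family that also holds the flowering signal FT, rose by 3.36 (2.91 without stressed replicate 3), and EBP by 3.34 (standard error 0.12). GSTU42, a glutathione transferase of the tau class, rose 10.8-fold (log2 fold change 3.43 with a standard error of 0.20, adjusted p = 5.8e-07), from 1.92, 1.90 and 2.36 to 5.48, 5.09 and 5.92. PGIP, an inhibitor of fungal polygalacturonases, was at the background of the array in non-stressed seeds (0.41 to 0.51) and at 3.22, 2.74 and 3.63 in stressed seeds. This background, 0.86, is the level that 95% of the probe sets of other organisms stay under on the highest of the 6 arrays, and the rise of PGIP from it was at least 5.05-fold (adjusted p = 2.9e-06).

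Among named genes whose groups did not overlap, the largest falls were of flavonoid, seed coat, jasmonate and cell wall genes. IFR1, an isoflavone reductase, lay at 6.60, 6.64 and 6.29 on the non-stressed and 1.73, 2.36 and 2.91 on the stressed arrays. It was 18.1-fold lower under stress (log2 fold change -4.17 with a standard error of 0.25, adjusted p = 6.5e-07), and all 4 of its probe sets fell, by 3.09 to 4.17 on the log2 scale. SCB1, a BURP domain protein of the seed coat, lay at 6.02, 5.73 and 5.40 on the non-stressed and 2.35, 2.22 and 0.96 on the stressed arrays, a fall of 14.6-fold (log2 fold change -3.87 with a standard error of 0.31, adjusted p = 6.2e-06). HPS, a hydrophobic protein found on the surface of seeds, fell 12.4-fold, from 9.71, 9.26 and 9.11 to 6.11, 5.87 and 5.19 (log2 fold change -3.64 with a standard error of 0.25, adjusted p = 1.9e-06). In both seed coat genes stressed replicate 3 was the lowest of the 6 arrays, and without it the log2 fold changes were -3.43 and -3.37. AOC4, an allene oxide cyclase of jasmonate synthesis, went from 6.41, 6.24 and 6.04 to 2.75, 2.26 and 2.97 (log2 fold change -3.57 with a standard error of 0.17, adjusted p = 1.6e-07). EXP4, an expansin that loosens cell walls, had the smallest adjusted p of the 15 falls, with 4.48, 4.38 and 4.49 on the non-stressed and 0.88, 0.98 and 1.1 on the stressed arrays (log2 fold change -3.46 with a standard error of 0.11, adjusted p = 8.8e-09). SSTP-1, for which no role is at hand, fell by 3.18 (standard error 0.76), by 2.08 without stressed replicate 3, and by 3.77 without stressed replicate 2. Its array of stressed replicate 3 lay at 1.31, against 4.49 and 4.69 on the other stressed arrays. Its 2 probe sets disagreed, the other having a log2 fold change of 0.88, and with their median the gene was not called (-1.15, adjusted p = 0.145). Non-stressed R7 seeds (2 arrays) had lower means than stressed R6 seeds for all of these genes. They were 1.02 (IFR1), 0.48 (SCB1), 3.31 (HPS), 1.79 (AOC4), 0.52 (EXP4) and 0.24 (SSTP-1). Of the rises, GSTU42 and DREB2A2 (6.73 and 9.25) lay above their stressed R6 means in those seeds. SHOOT2 and EBP (0.99 and 5.46) lay below their non-stressed R6 means. The part of maturity in these changes was not tested.

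**Figure D2:**
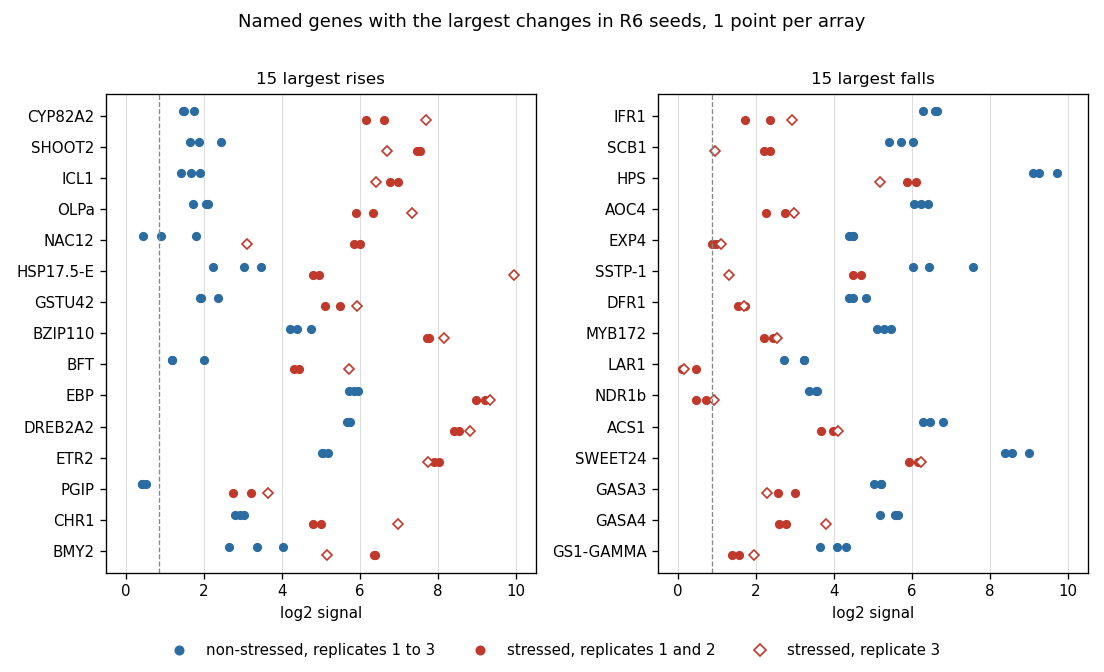
Log2 signal (x axis) on each of the 6 arrays of R6 seeds for the named genes with the 15 largest rises (left) and 15 largest falls (right) among those whose groups do not overlap, with blue for non-stressed, red for stressed and an open diamond for stressed replicate 3. The dashed line is the background of 0.86, and the open diamond lies far from the filled red points for HSP17.5-E (9.94), NAC12 (3.10) and SSTP-1 (1.31).

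Heat shock proteins were called in both directions, and 5 of 9 had their highest signal on stressed replicate 3. Of 9 measured heat shock proteins and co-chaperones 1 was called higher and 2 lower, with a median log2 fold change of 0.23 (-0.57 without stressed replicate 3). The small heat shock protein HSP17.5-E gave 2.23, 3.03 and 3.47 on the non-stressed and 4.80, 4.96 and 9.94 on the stressed arrays. Its log2 fold change was 3.66 (adjusted p = 0.018) with a standard error of 1.08, and 1.97 (adjusted p = 1.6e-04) with a standard error of 0.27 without stressed replicate 3, so that the gene was called with and without that array. It was not called without non-stressed replicate 1 (log2 fold change 3.32, adjusted p = 0.057) or from a fit of the 6 R6 arrays alone (3.66, adjusted p = 0.066), and without stressed replicate 1 or 2 the value was 4.54 or 4.46. The rise on the other stressed arrays was smaller and alike on both. Of the 2 probe sets of HSP17.5-E only 1 was called, and the other had a log2 fold change of 2.19. HSP90A1, a chaperone of the HSP90 family, gave 4.97, 4.75 and 4.74 on the non-stressed and 3.5, 3.75 and 8.10 on the stressed arrays. With all 6 arrays it was not called (log2 fold change 0.30, adjusted p = 0.81), while without stressed replicate 3 it was lower by 1.19 on the log2 scale (adjusted p = 1.9e-05). HSP22.5 was near the background on 5 arrays (0.40 to 0.75) and at 4.86 on stressed replicate 3, and HSP22.3 was at 1.85 to 2.70 on 5 arrays and at 5.19 on that one. For 5 of the 9 genes stressed replicate 3 was the highest of the 6 arrays.

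The 2 members that fell did so alike on every stressed array. BIP4, the chaperone BiP of the endoplasmic reticulum, went from 7.79, 7.83 and 7.87 to 5.81, 5.90 and 5.85 (log2 fold change -1.98 with a standard error of 0.11, adjusted p = 3.4e-07). HSP90-1, of the HSP90 family, went from 9.07, 9.05 and 9.12 to 8.01, 8.0 and 8.07 (log2 fold change -1.05 with a standard error of 0.08, adjusted p = 3.6e-06), and its 6 probe sets fell by 1.05 to 1.58. PDIM-1, a protein disulfide isomerase that helps proteins form their disulfide bonds in the endoplasmic reticulum, fell by 1.65 (standard error 0.09). NRP-A, an asparagine-rich protein of the cell death response to endoplasmic reticulum stress, fell by 1.54 (adjusted p = 4.3e-04). These 3 (BIP4, PDIM-1, NRP-A) were the members called lower among 9 measured genes of endoplasmic reticulum stress and cell death, and none was called higher by limma (0 also at unadjusted p up to 0.05), with a median of -0.32. NRP-B, a close relative of NRP-A, had 6.72 and 6.36 on stressed replicates 1 and 2, 4.18 on replicate 3 and 4.75 to 5.52 on the non-stressed arrays, and was called higher without replicate 3 (log2 fold change 1.44, adjusted p = 5.0e-04) but not with it (0.65, adjusted p = 0.33). BAG6A, of a family of co-chaperones that act in cell death, was at 0.18 to 0.50 on 5 arrays and at 3.54 on stressed replicate 3.

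Of 9 heat stress transcription factors 2 were called higher and 1 lower, with a median of 0.50. HSF-03 gave 3.68, 3.85 and 3.84 on the non-stressed and 5.18, 5.09 and 5.30 on the stressed arrays (log2 fold change 1.40 with a standard error of 0.09, adjusted p = 1.7e-06), with no overlap between the groups. HSF-15 rose by 1.03, close to the 2-fold limit, and passed it neither without non-stressed replicate 3 (0.97) nor without stressed replicate 1 (0.98). HSF-08 fell, from 5.45, 5.27 and 5.08 to 3.40, 3.45 and 4.4 (log2 fold change -1.52 with a standard error of 0.23, adjusted p = 3.8e-04), and stressed replicate 3 was again the array nearest to the non-stressed level. Of 10 cyclophilins, prolyl isomerases that also assist folding, CYP11 fell by 1.08 (standard error 0.12) and none was called higher by limma (0 at unadjusted p up to 0.05).

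**Figure D3:**
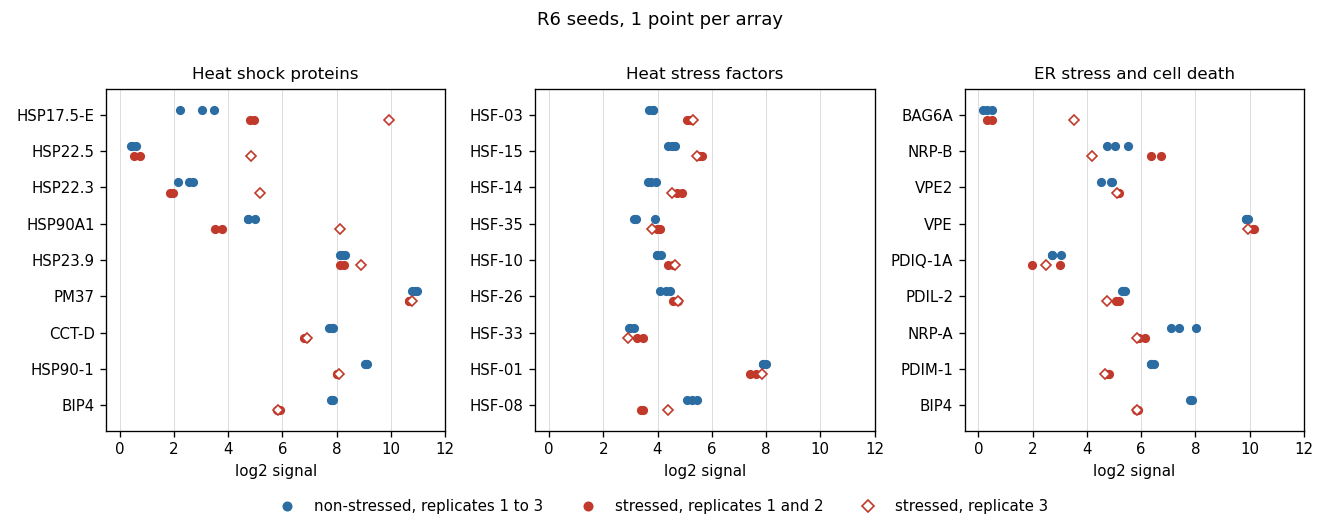
Log2 signal (x axis) on each of the 6 arrays of R6 seeds for the measured heat shock proteins, heat stress transcription factors and genes of endoplasmic reticulum stress and cell death, ordered by log2 fold change, with colours for the groups and an open diamond for stressed replicate 3. That array is the highest of the 6 for 5 of 9 heat shock genes, while BIP4 and HSP90-1 are low on all 3 stressed arrays.

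Transcripts of the main storage proteins and protease inhibitors of the embryo lay at like levels in both groups. The 7 embryo markers with a probe set, of 10 in the list (the storage proteins GY1, GY2, GY5 and CG-BETA-1, the protease inhibitors KTI3 and BBI, and P34), lay at 11.75 to 13.24 on every array. These are the markers that define the tissue, and their log2 fold changes were -0.14 to 0.11, none called and 0 at unadjusted p up to 0.05 by limma. The GY1 signals, 13.14 to 13.24, lie at the top of the measured range, which can hide a difference. Of 10 seed storage protein genes GY7, a glycinin with a low signal, was called higher (4.51, 3.46 and 3.21 on the non-stressed and 4.94, 4.78 and 4.68 on the stressed arrays, log2 fold change 1.07 with a standard error of 0.29, adjusted p = 0.012), but not without non-stressed replicate 2 or 3 (log2 fold change 0.94 and 0.81). Without non-stressed replicate 1, at 4.51, the call was kept. Of 31 genes listed under late embryogenesis abundant and seed maturation proteins, which protect the drying embryo, ERD15 was called higher and none lower. ERD15 is named for its early response to dehydration, and its name places it in neither of these classes. No other member of the list was called with all arrays. ERD15 gave 7.99, 8.08 and 8.06 on the non-stressed and 10, 10.12 and 10.34 on the stressed arrays, a rise of 4.32-fold (log2 fold change 2.11 with a standard error of 0.10, adjusted p = 1.5e-07). The others ran from -0.20 to 0.79 with a median over the list of 0.13, and 12 of the 31 were higher and 2 lower at unadjusted p up to 0.05. PM39 was at 10.73, 10.74 and 9.91 on the stressed arrays against 9.58 to 9.83 on the non-stressed arrays, and was called without stressed replicate 3 (log2 fold change 1.06) but not with it (0.79). Of 11 protease inhibitors BBI-1, of the Bowman-Birk type, was called higher (log2 fold change 1.30, 0.92 and not called without stressed replicate 3), and the median was -0.06.

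NAC factors, plant transcription factors many of which act in senescence and drought, were higher where called. Of 11 measured 4 were called higher and none lower by limma (1 lower at unadjusted p up to 0.05), with a median log2 fold change of 0.72. NAC12 gave 1.80, 0.89 and 0.45 on the non-stressed and 6.0, 5.86 and 3.10 on the stressed arrays. The groups did not overlap, but stressed replicate 3 was nearer to the non-stressed arrays than its fellow replicates were. It was higher by 3.94 on the log2 scale (adjusted p = 6.6e-04, with a standard error of 0.65) and 4.88 (standard error 0.30) without replicate 3. NAC26 gave 4.45, 3.58 and 3.00 on the non-stressed and 6.43, 6.36 and 4.92 on the stressed arrays and showed the same order of arrays (log2 fold change 2.23, 2.72 without replicate 3). NAC14 rose by 1.69 (standard error 0.16) and its other probe set by 2.35. NAC51 left the background in stressed seeds, with 1.99, 1.78 and 1.75, at least 1.97-fold above it (adjusted p = 1.4e-05).

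The larger families of factors went both ways. Of 38 bZIP factors 6 were called higher and 3 lower, with a median of 0.08. BZIP105 went from 3.24, 3.10 and 3.13 to 5.13, 5.04 and 5.66 (log2 fold change 2.12 with a standard error of 0.15, adjusted p = 2.8e-06), and BZIP71 and BZIP28 rose by 1.66 and 1.1. BZIP62 fell by 2.26 (standard error 0.11), from 5.48, 5.62 and 5.32 to 3.19, 3.35 and 3.07, and BZIP59 fell by 1.47. BZIP111 (1.57) was not called without stressed replicate 3 (0.90), nor was BZIP95 (1.03) without non-stressed replicate 1 or 3 or stressed replicate 3 (0.99 each). BZIP77 (-1.01) was not called without non-stressed replicate 1 (-0.92) or stressed replicate 3 (-0.82). Of 30 MYB factors 6 were called higher and 2 lower, with a median of 0.37. MYB145, whose symbol stands for a pair of genes in the annotation, was left out of that count, and they had log2 fold changes of 1.07 (called) and 0.87 (not called). MYB60 and MYB177 rose by 2.00 and 1.53 (standard errors 0.25 and 0.13), and MYB176, a regulator of chalcone synthase and isoflavonoid synthesis in soybean, by 1.25. MYB184 was at background in non-stressed seeds and reached 0.97, 1.29 and 3.97 in stressed seeds, a rise of at least 2.32-fold (adjusted p = 0.024). It was not called when any 1 of the non-stressed arrays was left out (adjusted p = 0.053 to 0.067). MYB172 gave 5.10, 5.45 and 5.28 on the non-stressed and 2.20, 2.43 and 2.53 on the stressed arrays, a fall of 7.42-fold (log2 fold change -2.89 with a standard error of 0.14, adjusted p = 2.1e-07). Of 20 WRKY factors WRKY4 and WRKY53 were called higher (1.09 and 1.26), and WRKY12 fell to the background by at least 4.52-fold (adjusted p = 4.9e-06). Of 9 DREB, ERF and AP2 factors 3 were called higher and 1 lower, DREB2A2 before, AP2-9 with 2.51 (3.52, 3.00 and 3.96 under stress) and DREB1 with 1.1, which missed the fold limit without non-stressed replicate 3 (0.96). ERF6, of the ethylene response factors, was lower by 1.45, and ERF5 by 1.32 without stressed replicate 3 but was not called with it (-0.97).

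Genes of the anthocyanin and proanthocyanidin branch of flavonoid synthesis were lower where called. Of 16 measured genes of general flavonoid and anthocyanin synthesis 7 were called lower and none higher by limma (12 lower and 0 higher at unadjusted p up to 0.05), with a median of -0.67. DFR1, dihydroflavonol reductase, gave 4.81, 4.39 and 4.5 on the non-stressed and 1.71, 1.55 and 1.70 on the stressed arrays, a fall of 7.53-fold (log2 fold change -2.91 with a standard error of 0.13, adjusted p = 1.1e-07). LAR1, leucoanthocyanidin reductase, which makes the building blocks of proanthocyanidins, fell from 2.72, 3.22 and 3.24 to the background (0.46, 0.12 and 0.16), by at least 4.58-fold (adjusted p = 3.6e-07). F3H, flavanone hydroxylase, went from 7.83, 7.95 and 7.78 to 5.87, 5.98 and 6.65 (log2 fold change -1.69 with a standard error of 0.18, adjusted p = 4.4e-05), and ANS2, anthocyanidin synthase, from 5.16, 5.65 and 5.27 to 3.53, 3.38 and 4.78 (log2 fold change -1.46 with a standard error of 0.33, adjusted p = 0.0042). In both, stressed replicate 3 lay nearest to the non-stressed arrays, and their log2 fold changes without it were -1.93 and -1.90. CHI2-A, a chalcone isomerase, fell by 1.96, 4CL1, a coumarate-CoA ligase at the entry of the pathway, by 1.87, and UGT78K1, a flavonoid glucosyltransferase, by 1.06, the last not called without stressed replicate 1 (-0.91). CHS8, a chalcone synthase, was at 8.13, 8.51 and 8.52 and 7.62, 7.58 and 8.32 and was not called (log2 fold change -0.55).

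The isoflavonoid and pterocarpan branch was split. Of 15 measured genes 4 were called higher and 2 lower, with a median of 0.58. Higher were CHR1, IFR and 2 genes of late steps to glyceollins, G4DT and CYP93A1. G4DT, the prenyltransferase of that path, went from 0.98, 0.84 and 1.02 to 2.91, 2.23 and 4.04 (log2 fold change 2.12 with a standard error of 0.35, adjusted p = 6.5e-04), and CYP93A1, a pterocarpan hydroxylase, from 1.33, 1.97 and 1.11 to 3.06, 2.99 and 4.02 (log2 fold change 1.89 with a standard error of 0.28, adjusted p = 3.5e-04). CHR1, a chalcone reductase, went from 2.79, 2.92 and 3.03 to 5.01, 4.79 and 6.98, with a log2 fold change of 2.68, and 1.99 without stressed replicate 3 (adjusted p = 9.2e-04 and 1.3e-05). In all 3 stressed replicate 3 was the highest array. IFR, another isoflavone reductase, was at 1.6 and 1.69 on stressed replicates 1 and 2 and 5.15 on replicate 3, and it was called with all arrays but not without stressed replicate 3 (log2 fold change 0.85), nor without non-stressed replicate 1, 2 or 3 (adjusted p = 0.081 to 0.12). Lower were IFR1, above, and CHR5, another chalcone reductase, from 7.93, 7.85 and 7.94 to 6.02, 6.03 and 6.94 (log2 fold change -1.57 with a standard error of 0.27, adjusted p = 8.2e-04). The enzymes of the common steps, the isoflavone synthases IFS1 and IFS2 and the dehydratase HIDH, had log2 fold changes of 0.16, 0.58 and 0.58 and were not called. PTS1, pterocarpan synthase, was at 1.6 to 2.11 on 5 arrays and at 4.47 on stressed replicate 3.

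Of 19 cytochromes P450 3 were called higher (CYP82A2, CYP83E8 and CYP93A1) and 1 lower (CYP98A2, which hydroxylates phenylpropanoids, by 1.11), and 4 were higher without stressed replicate 3. CYP98A2 missed the fold limit without non-stressed replicate 1 (-0.97) or stressed replicate 1 (-0.91). CYP83E8 gave 3.31, 2.68 and 2.62 on the non-stressed and 5.87, 5.54 and 4.04 on the stressed arrays (log2 fold change 2.28 with a standard error of 0.40, adjusted p = 0.001), with stressed replicate 3 the lowest of the stressed arrays.

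All 4 measured seed coat genes were called, 3 lower (SCB1, HPS, LAR1) and 1 higher, with a median of -3.22. The gene that rose was Ep, the peroxidase of the seed coat, with 2.65, 2.28 and 1.48 on the non-stressed and 4.67, 4.15 and 4.11 on the stressed arrays (log2 fold change 2.17 with a standard error of 0.27, adjusted p = 1.2e-04), so the defining markers of the coat (SCB1, HPS and Ep, 3 of 3 above 3 in a group) did not move in 1 direction. Summed over the 3, their log2 signals were 15.98 to 18.38 on the non-stressed and 10.26 to 13.13 on the stressed arrays, while the embryo markers summed to 86.25 to 86.52 and 85.9 to 86.73. How much seed coat went into each sample was not measured and its part in these falls was not tested. Markers of root nodules, which a seed sample should lack, were below 2 on every array (3 probe sets of 7 markers). Of these UR9 lay at 0.51 to 0.58 on the non-stressed and 1.94 to 1.98 on the stressed arrays, and N-26 at 0.92 to 1.51 and 0.32 to 0.46, and neither reached the mean of 3 needed to be tested. Besides EXP4, 2 of 10 cell wall genes were called, PGIP and the expansin EXP1, both higher, and EXP1 (1.09) missed the limit without non-stressed replicate 3 (0.92). Without stressed replicate 3 the count of cell wall genes called higher was 4. Aquaporins, the water channels of membranes, were lower where called. Of 12 measured, 3 fell and none rose by limma (8 lower and 1 higher at unadjusted p up to 0.05), with a median of -0.44. PIP2-8 gave 8.94, 9.05 and 9.13 on the non-stressed and 7.29, 7.42 and 7.64 on the stressed arrays (log2 fold change -1.59 with a standard error of 0.11, adjusted p = 2.2e-06), and PIP2-9 and PIP2-13 fell by 1.51 and 1.13. PIP1-4 had 4.06, 3.90 and 4.89 under stress against 5.13 to 5.21 and was called without stressed replicate 3 (log2 fold change -1.18) but not with it (-0.87).

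Among hormone genes those of jasmonate synthesis and the GASA peptides were lower where called. Of 10 genes of jasmonate and lipoxygenases 4 were called lower and 1 higher, with a median of -0.42. Of these 4, 3 were allene oxide cyclases, AOC4 above, AOC3 (-1.35) and AOC6 (-1.13), the last missing the limit without non-stressed replicate 1 (-0.96) or stressed replicate 1 (-0.93). The lipoxygenase LOX9 went from 3.32, 3.06 and 2.66 to 1.11, 1.07 and 1.44 (log2 fold change -1.81 with a standard error of 0.17, adjusted p = 1.6e-05). The seed lipoxygenases LOX1.1, LOX2 and LOX3 were at 11.06 to 12.15 on every array and were not called. The jasmonate receptor COI1 was called higher (1.16), but not without stressed replicate 3 (0.96). Its 5 probe sets ran from 0.050 to 1.16, and with their median it was not called (0.16, adjusted p = 0.29). Of 9 GASA peptides, small cysteine-rich proteins regulated by gibberellin, 4 were called lower and none higher by limma (7 lower and 1 higher at unadjusted p up to 0.05), with a median of -0.75. GASA3 gave 5.03, 5.21 and 5.21 on the non-stressed and 2.56, 3.00 and 2.29 on the stressed arrays, a fall of 5.78-fold (log2 fold change -2.53 with a standard error of 0.20, adjusted p = 5.9e-06). GASA4, GASA9 and GASA13 fell by 2.41, 1.93 and 1.88, while GASA27 and GASA12 had -0.43 and -0.71 and were not called. GA2OX8, a gibberellin 2-oxidase that inactivates the hormone, rose (6.83, 6.76 and 6.78 to 8.21, 8.17 and 7.63, log2 fold change 1.22 with a standard error of 0.14, adjusted p = 7.4e-05), GA2OX6 had 0.69 and GAI1, a repressor of gibberellin responses, 0.24, neither called.

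Ethylene genes moved apart. ACS1, the ACC synthase that makes the precursor of ethylene, gave 6.80, 6.46 and 6.29 on the non-stressed and 3.97, 3.66 and 4.10 on the stressed arrays and was 6.09-fold lower (log2 fold change -2.61 with a standard error of 0.18, adjusted p = 2.4e-06), while the receptor ETR2 rose and EIN4, of the same receptor family, was not called (-0.13, and 0.16 without stressed replicate 3). Of 5 genes listed under auxin ADR11, named as down-regulated by auxin, was lower by 1.43 (11.32, 11.24 and 11.25 to 9.67, 9.88 and 9.96). SAN1A was counted in the same list, though it was planned for the leaf senescence list and no role in auxin action is at hand for it. SAN1A was higher by 2.48 (adjusted p = 5.7e-04). The auxin receptors TIR1C and AFB3B had 0.93 and 0.90 and ADR12 had 0.24, none of them called, though TIR1C passed without stressed replicate 2 (1.01). No brassinosteroid gene of 4 was called by limma, with 1 higher and 1 lower at unadjusted p up to 0.05 (BES1-12 -0.81, BRI1B 0.33, BIN2 0.06, CYP90A15 0.04). Among 7 genes of abscisic acid and stress kinases SPK-4, a kinase of the SnRK family, was called higher, from 2.11, 1.77 and 1.86 to 3.67, 3.33 and 2.85 (log2 fold change 1.37 with a standard error of 0.18, adjusted p = 1.6e-04), and none lower.

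Sugar transporters were called in both directions. Of 10 measured, 3 SWEET genes, which export sugars from cells, were lower. SWEET24 gave 9.01, 8.56 and 8.37 on the non-stressed and 5.92, 6.15 and 6.23 on the stressed arrays, a fall of 5.84-fold (log2 fold change -2.54 with a standard error of 0.22, adjusted p = 9.4e-06), and SWEET17 and SWEET13 fell by 2.01 and 1.88. STP1, which by its name is of the proton-coupled hexose importers, rose from 5.14, 4.82 and 4.58 to 7.34, 7.14 and 7.59 (log2 fold change 2.51 with a standard error of 0.19, adjusted p = 4.0e-06), and SWEET29 rose by 1.22 but missed the limit without non-stressed replicate 2 (0.98). Of 7 genes of starch, sucrose and inositol BMY2, a beta-amylase that breaks down starch, was called, with 4.02, 3.37 and 2.65 on the non-stressed and 6.39, 6.37 and 5.17 on the stressed arrays (log2 fold change 2.63 with a standard error of 0.37, adjusted p = 2.3e-04) and gave 3.04 without stressed replicate 3. Of 5 inositol phosphate kinases, enzymes on the way to phytate, ITPK3 fell (7.02, 6.65 and 6.54 to 5.0, 5.13 and 4.39, log2 fold change -1.90 with a standard error of 0.19, adjusted p = 2.2e-05), though its 3 probe sets ran from -2.28 to -0.39 and their median, -0.69, missed the limit. ITPK2 and ITPK1 had -0.86 and -0.36. The other two, ITPK4 and IPK2, were at 3.16 to 4.03 in non-stressed and 3.17 to 3.83 in stressed seeds, and none of these 4 was called.

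Beside ICL1, the other genes called among 9 of glyoxylate and organic acid metabolism were lower. MDH-1, a malate dehydrogenase, went from 8.01, 7.92 and 7.99 to 6.66, 6.70 and 6.87 (log2 fold change -1.23 with a standard error of 0.11, adjusted p = 9.9e-06), and PPCK4, a kinase that activates phosphoenolpyruvate carboxylase, fell by 1.5, the other 6 of 9 not being called. The symbol MS was planned for this list but not counted among these 9. MS was called higher with all arrays (1.64, adjusted p = 0.047) and without stressed replicate 3 (2.60, adjusted p = 2.8e-07). With any of the other arrays left out MS was not called (adjusted p = 0.073 to 0.17). Its stressed arrays were 6.61, 6.72 and 3.79 against 3.87 to 4.36, so replicate 3 overlapped the non-stressed arrays. Of 18 genes that act in making fatty acids and oil, 2 were called lower and none higher by limma (10 lower and 2 higher at unadjusted p up to 0.05), with a median of -0.49. ACCB-2, the biotin carrier subunit of plastid acetyl-CoA carboxylase, gave 6.18, 6.31 and 6.41 on the non-stressed and 4.95, 5.04 and 4.93 on the stressed arrays (log2 fold change -1.33 with a standard error of 0.15, adjusted p = 5.8e-05), and FAD3B, a desaturase that makes linolenic acid, fell by 1.07. FAD2-1A, a desaturase that makes linoleic acid in seeds, was at 11.78 to 11.97 on all 6 arrays and was not called (0.09).

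Photosynthesis transcripts were lower where called. Of 11 genes 5 were called lower and none higher by limma (7 lower and 1 higher at unadjusted p up to 0.05), with a median of -0.67. CAB3, which binds chlorophyll in the light harvesting antenna, gave 8.17, 8.37 and 8.42 on the non-stressed and 6.71, 6.73 and 6.53 on the stressed arrays (log2 fold change -1.67 with a standard error of 0.11, adjusted p = 1.2e-06), although 1 of its 4 probe sets had a log2 fold change of 0.73. Rubisco activase fell in 3 of its 4 measured genes, RCABETA, RCAALPHA and RCA14, by 1.71, 1.56 and 1.09. ELIP, an early light-induced protein, went from 3.21, 3.18 and 3.01 to 1.65, 1.28 and 2.06 (log2 fold change -1.47 with a standard error of 0.17, adjusted p = 7.1e-05). Markers of green pod or leaf (4 of 6 with a probe set, 3 of them among the genes above and VSPA below 1 on every array) summed to 18.14 to 18.77 on the non-stressed and 12.98 to 13.79 on the stressed arrays, and their part in these falls was not tested. NDHK, of the plastid NDH complex, was at 5.20 and 5.30 on stressed replicates 1 and 2 and 3.13 on replicate 3, against 4.56 to 4.83, and was not called (-0.11, and 0.60 without replicate 3).

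None of the 6 genes of chlorophyll synthesis and breakdown was called by limma, and 2 were higher at unadjusted p up to 0.05. The 6 were the stay-green genes SGR1, SGR2 and SGR and the synthesis genes HEMB, GSA1 and HEMG. Enzymes of chlorophyll breakdown, such as PPH, PAO and RCCR, were not among them, so those steps were not read here. Stay-green genes, which take part in chlorophyll breakdown, were among those not called. SGR1 gave 6.19, 6.25 and 6.11 on the non-stressed and 6.68, 6.69 and 6.28 on the stressed arrays (log2 fold change 0.37, adjusted p = 0.024), SGR2 gave 6.37, 6.17 and 5.97 on the non-stressed and 6.48, 6.64 and 5.88 on the stressed arrays (0.16, adjusted p = 0.5), and SGR gave 5.26 to 5.38 on the non-stressed and 4.83 to 5.6 on the stressed arrays. Stressed replicate 3 was the lowest stressed array for both SGR1 and SGR2, and below the non-stressed arrays for SGR2, and without it their log2 fold changes were 0.50 and 0.39. Of 10 genes listed under leaf senescence 4 were called higher and none lower by limma (8 higher and 0 lower at unadjusted p up to 0.05). They were NAC12 and BFT above, SARK, a senescence-associated receptor kinase, and WRKY53, named for a senescence regulator of Arabidopsis. BFT is of the PEBP family and is counted again with the flowering genes below, so the count is not one of senescence genes alone. SAN1A, called higher, was planned for this list but counted under auxin. SARK was at 1.15, 1.17 and 0.82 in non-stressed and 2.40, 2.27 and 3.83 in stressed seeds (log2 fold change 1.79 with a standard error of 0.33, adjusted p = 0.0014), and WRKY53 at 1.39, 1.36 and 1.49 and 2.50, 2.52 and 3.00 (log2 fold change 1.26 with a standard error of 0.13, adjusted p = 3.3e-05).

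Nitrogen and metal genes were lower where called. Of 11 genes of ureide, urease and amide nitrogen 3 fell and none rose by limma (7 lower and 2 higher at unadjusted p up to 0.05). GS1-GAMMA, a cytosolic glutamine synthetase, went from 4.30, 4.08 and 3.65 to 1.39, 1.56 and 1.94 (log2 fold change -2.38 with a standard error of 0.19, adjusted p = 5.3e-06), its paralog GS1GAMMA2 fell by 1.25, and GDH2, a glutamate dehydrogenase, by 1.1. Of 8 genes of metal binding and ferritin 3 fell and none rose (5 lower and 1 higher at unadjusted p up to 0.05). SFERH-2, an iron-storing ferritin subunit, went from 9.72, 9.71 and 9.71 to 8.08, 8.21 and 8.05 (log2 fold change -1.6 with a standard error of 0.24, adjusted p = 3.8e-04), while SFERH-4 had 0.30 and SFERH-3 had -0.69, not called. DMT1, a metal transporter, and MT2, a metallothionein, fell by 1.44 and 1.28. Of 11 phosphate genes SPX3, whose family takes part in phosphate sensing, was called lower (-1.38) and none higher by limma (4 lower and 2 higher at unadjusted p up to 0.05), with a list median of 0.0038.

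Protective enzymes and defence proteins were mixed. Of 29 genes of glutathione and ascorbate metabolism GSTU42 was called higher and 2 lower, with a median of 0.11. APX2, an ascorbate peroxidase, gave 4.73, 4.84 and 4.67 on the non-stressed and 2.04, 2.23 and 3.24 on the stressed arrays (log2 fold change -2.24 with a standard error of 0.26, adjusted p = 5.9e-05, and -2.61 without stressed replicate 3), and GSTF7, of the phi class, fell by 1.67. Of 8 glyoxalases, which remove the toxic by-product methylglyoxal, GLYI-6 and GLYII-6 rose by 1.82 and 1.19 (standard errors 0.31 and 0.14). Of 8 alcohol and aldehyde dehydrogenases ALDH3H1 rose from 2.15, 2.15 and 2.03 to 4.11, 3.83 and 3.45 (log2 fold change 1.69 with a standard error of 0.16, adjusted p = 1.7e-05) and ALDH2B4 was called lower (-1.06), but not without non-stressed replicate 2, stressed replicate 1 or stressed replicate 3 (-0.97, -0.99 and -0.92). Of 10 defence proteins 3 were called higher and 1 lower. PR-10, a pathogenesis-related protein, gave 2.80, 3.16 and 2.82 on the non-stressed and 4.78, 4.69 and 5.6 on the stressed arrays (log2 fold change 2.1 with a standard error of 0.26, adjusted p = 9.8e-05), beside OLPa and PGIP, and NDR1b, related to a disease resistance protein of Arabidopsis, fell to the background by at least 6.15-fold (adjusted p = 1.0e-07). Of 8 genes of flowering and the PEBP family BFT and LUXC, named for a clock protein, were called higher and COL10 and CRY2B, a cryptochrome, lower (-1.38 and -1.05). LUXC (1.02) missed the limit without stressed replicate 3 (0.96) and CRY2B without stressed replicate 1 (-0.98). MFT, a PEBP protein of seeds, had -0.45 at signals of 10.27 to 10.80.

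**Figure D4:**
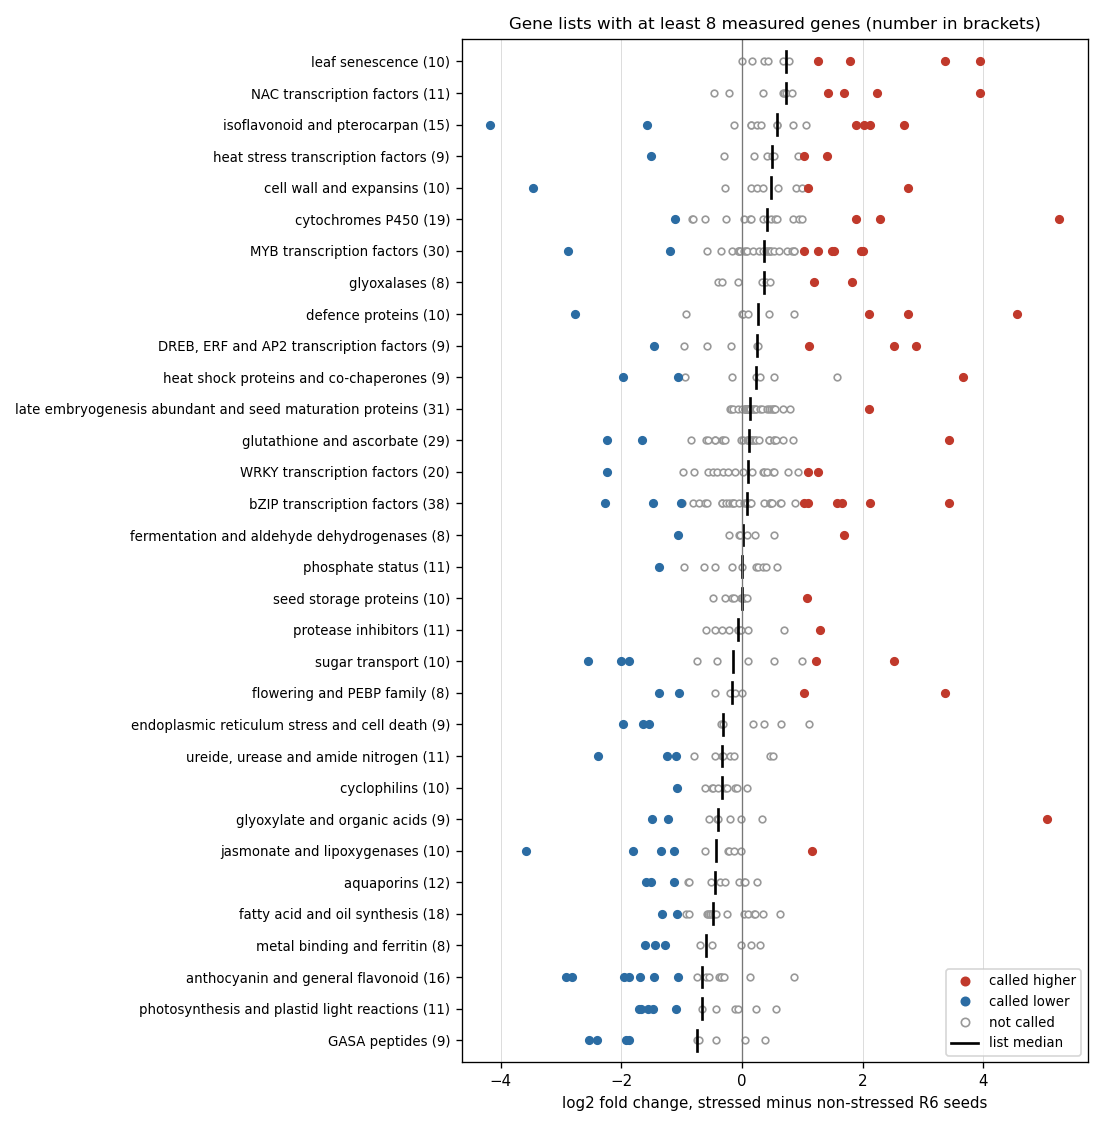
Log2 fold change (x axis, stressed minus non-stressed R6 seeds, 3 against 3 arrays) of each measured gene in the lists with at least 8 measured genes, the number in brackets, ordered by the list median (black bar). Red and blue points are called higher and lower and open points are not called, and the lists with the lowest medians are the GASA peptides (-0.75), photosynthesis (-0.67) and anthocyanin genes (-0.67).

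The largest changes of all were in probe sets that the tables at hand do not name. Of the 2856 called probe sets 1905 (66.7%) pair with no gene or with several, against 70.04% of all probe sets kept. LOC100527311 gave 0.64, 0.56 and 0.76 on the non-stressed and 8.21, 8.2 and 8.28 on the stressed arrays, a rise from the background of at least 165-fold (adjusted p = 2.0e-11). Stressed replicate 3 was as high as its fellow replicates. The probe set GmaAffx.69635.1.S1_at, with no gene, went from 0.20, 0.32 and 0.26 to 7.32, 7.54 and 7.82, at least 104-fold, and Gma.4937.1.S1_s_at from 0.73, 0.57 and 0.48 to 7.76, 7.71 and 7.67, at least 115-fold. LOC100500480 and LOC100305943 followed with log2 fold changes of 7.08 and 6.30 (standard errors 0.19 and 0.12). In the other direction Gma.1815.1.S1_at fell from 7.96, 7.39 and 7.18 to the background, at 0.88, 0.62 and 0.93, by at least 100.3-fold (adjusted p = 4.9e-09). GmaAffx.53185.1.S1_at fell by 6.06 (standard error 0.26) from 7.12, 7.67 and 7.39 to 0.97, 1.16 and 1.86, and LOC100820426 fell by at least 25.5-fold from 5.78, 5.65 and 5.18. The groups did not overlap in any of these probe sets.

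Stressed replicate 3 was set against its fellow replicates probe set by probe set. For the 1996 probe sets called higher from stressed replicates 1 and 2 alone, the median share of the rise seen in replicate 3 was 0.652, it went beyond the mean of the other 2 in 512 and it lay on the other side of the non-stressed mean in 346. For the 1663 called lower the median share was 0.775, with 368 beyond and 27 on the other side. These probe sets were chosen for their change on replicates 1 and 2, so a share below 1 is favoured by the choice. Among named genes it lay farthest above its fellow replicates for HSP17.5-E, HSP90A1, HSP22.5, IFR and HSP22.3 (by 3.29 to 5.06) and farthest below for SSTP-1, MS, NAC12, NRP-B and NDHK (by 2.12 to 3.28). The 5 genes above thus hold 4 heat shock proteins. In non-stressed R8 seeds the means of these 4 were 10.46 (HSP17.5-E), 9.84 (HSP90A1), 4.36 (HSP22.5) and 4.27 (HSP22.3), and in non-stressed R7 seeds 7.21, 6.94, 0.66 and 2.42. For MS and NAC12, in which replicate 3 was low, those means were 10.6 and 5.37 at R8 and 9.82 and 5.47 at R7, so these 2 genes too were higher in R8 than in non-stressed R6 seeds. SSTP-1, NRP-B and NDHK, also low in replicate 3, had non-stressed means of 0.44, 3.43 and 4.06 at R8 and 0.24, 5.20 and 5.26 at R7. Their non-stressed R6 means were 6.68, 5.10 and 4.65, so these genes were lower in R8 than in R6 seeds. On the first principal component of all 16 arrays replicate 3 lay at -117.6 and its fellow replicates at -108.8 and -110.6, against a mean of -155.1 for non-stressed R6 and 144.6 for non-stressed R8 seeds. The labels give no batch and no other mark for this sample, and what sets it apart was not tested.

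**Figure D5:**
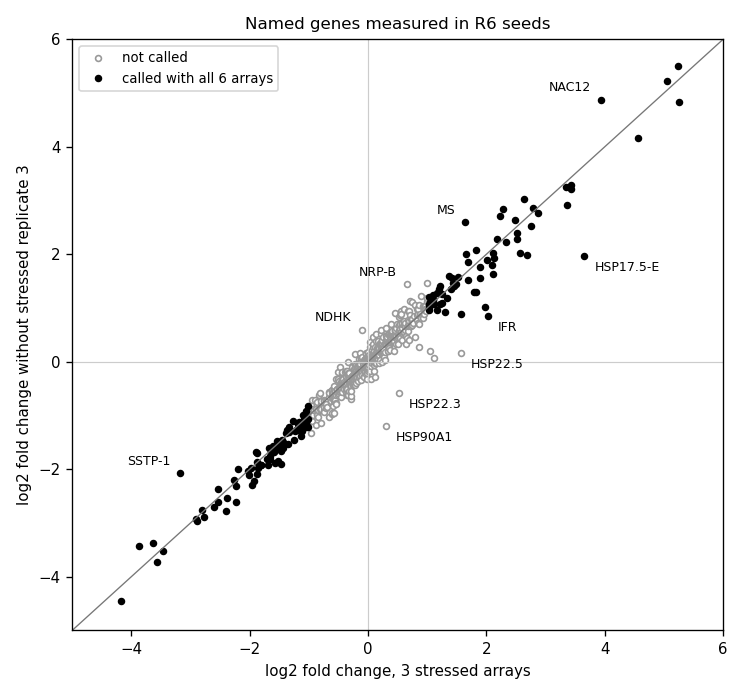
Log2 fold change of each of the 697 measured named genes from all 6 arrays of R6 seeds (x axis) and without stressed replicate 3 (y axis), filled where called from all 6 arrays, with the line of equal values. The labelled genes are the 5 in which stressed replicate 3 lies farthest above and the 5 in which it lies farthest below the other stressed arrays, and HSP90A1 goes from 0.30 to -1.19.

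The response at R6 was set against that of mature R8 seeds (3 stressed and 2 non-stressed arrays) for the 30 genes in the plot of the largest changes. Since those genes were chosen for the size of their change at R6, a smaller change at R8 is favoured by the choice. The difference between the responses was called for 25 of the 30 (11 of 15 rises and 14 of 15 falls), against 20.3% of all probe sets. In all 15 falls both R8 groups had means under 3, and in 12 of them both were at or below the background, where no fall can be measured and the difference returns the change at R6 with its sign turned. Of the 15 rises, 5 had both R8 means under 3, and in 14 the stressed R8 mean was above the non-stressed one. ICL1 had a mean of 1.19 in non-stressed and 5.59 in stressed R8 seeds, and the difference of its responses was -0.66 (adjusted p = 0.10). ETR2 (1.31 and 3.76, difference -0.34, adjusted p = 0.26) and BMY2 (1.84 and 4.84, difference 0.37, adjusted p = 0.62) were not called different either. CYP82A2 went from the background (0.61) to 1.92 at R8, a response smaller than that at R6 by 3.94 on the log2 scale (standard error 0.49, adjusted p = 1.9e-04).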

How the data were processed

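Per the labels, total RNA of whole seeds was hybridised to the Affymetrix Soybean Genome array and the authors normalized the scans with RMA, whose version is not given in the sources used here. Deposited values are on the log2 scale and some lie below 0. Of 61170 probe sets, 37593 were designed for soybean and 23350 for other organisms. The study's methods describe more arrays and fewer seeds per sample than the labels do, and only the 16 labelled samples were used.

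In R 4.3.3, limma 3.58.1 was fitted to the 11 arrays of R6 and R8 seeds as 4 group means with no covariate, for the 19194 soybean probe sets with a mean above 3 in at least 1 of 6 conditions. The contrast was R6 stressed minus R6 non-stressed (3 against 3), two-sided, with Benjamini-Hochberg adjustment over all 19194. Calls needed an adjusted p up to 0.05 together with a change of at least 1 on the log2 scale. All adjusted p-values are from this fit unless an array is said to be left out. Of the probe sets kept 5751 pair with 1 gene in the platform annotation, 286 with several and 13157 with none. Each gene is given by its probe set of highest mean signal, a symbol shared by several genes is left out of list counts, and close paralogs, frequent in soybean, can share a signal. For a group at or below the background of 0.863 on the log2 scale, the fold is a lower bound taken from that level. The script was tested on simulated data with known changes.

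Named were the 15 largest rises and 15 largest falls among called genes with a name whose arrays do not overlap, called members of each of 42 gene lists, all members of short lists, the marker genes, genes the study names, and the genes and unnamed probe sets where stressed replicate 3 or the change was most extreme. Other genes that were not called, given beside these, were chosen after their values were seen. The members and lists were chosen with earlier results of these data known, and no set test was run. Alternatives were each array left out, other sets of arrays, filters, normalizations and weights, a replicate block and a test against a 2-fold change. Promoter and other sequences were not used here.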

Additional observations from a re-analysis of the deposited data

Results flagged for a closer look

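For 25 of the 30 named genes with the largest changes at R6, the response to stress differed between R8 and R6 seeds by limma's test of the difference. The values below are the response at R8 minus that at R6 on the log2 scale, from the 11 arrays of both stages. Since the genes were chosen for a large change at R6, values opposite in sign to that change are favoured by the choice.

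Among the rises the difference was -4.14 for SHOOT2, -3.94 for CYP82A2 and -3.5 for BFT. OLPa, NAC12 and GSTU42 had differences of -3.35, -3.25 and -3.24. For BZIP110, PGIP and CHR1 they were -2.86, -2.42 and -2.13. The smallest were those of DREB2A2 (-1.92) and EBP (-1.32), and EBP still had a mean of 5.45 in non-stressed and 7.48 in stressed R8 seeds.

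Among the falls the difference was 4.27 for IFR1, 3.87 for HPS, 3.74 for SCB1, 3.61 for EXP4 and 3.38 for AOC4. NDR1b, LAR1, MYB172 and ACS1 had 3.07, 2.92, 2.76 and 2.70. GASA4 and DFR1 had 2.58 each, SWEET24 had 2.5, GASA3 had 2.42 and GS1-GAMMA had 2.35. In R8 seeds of both groups these 14 genes had means under 3, and in all of them but HPS, GASA3 and GASA4 both means were at or below the background of 0.863. There no fall can be measured, so these differences return the fall at R6 with its sign turned.

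Some probe sets designed for organisms other than soybean also differed between the R6 groups. Of 34 with a mean above 3 in an R6 group, 5 were counted as higher under stress and 1 as lower (HgAffx.19357.1.S1_s_at, -1.64). In each of those counted the R6 groups did not overlap and their means differed by more than 1. These probe sets were not part of the fit of soybean probe sets, and no p-value is given for them. The counts therefore cannot be set against the 14.9% of soybean probe sets called. The 5 were PsAffx.psHB035xE13f_at with a log2 difference of 2.96, PsAffx.psHB034xB01f_at with 1.72, PsAffx.psHA006iH10r_s_at with 1.5, PsAffx.CL3Contig2_s_at with 1.27 and HgAffx.18503.1.S1_at with 1.09. What these probe sets bind in soybean seed RNA was not tested.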

How the results depend on the processing

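The 2856 called probe sets (1448 higher and 1408 lower) became 1010 (510 and 500) in a test against a 2-fold change and 9615 (4701 and 4914) with no limit on the fold. With each array left out in turn the count was 2664 to 3659, with 1318 to 1996 higher and 1337 to 1663 lower, the highest of each without stressed replicate 3. Array weights gave 3668, with 55.6% of calls higher against 50.7%, and the other settings gave 2732 to 3368. Replicate numbers did not pair the samples (correlations of deviations of same-numbered samples 0.365, -0.217 and 0.175). With a replicate block 2876 probe sets were called (1464 higher and 1412 lower), all 2856 among them, and no call of a named gene changed. With the median over a gene's probe sets in place of 1 probe set, 10 named genes lost their call, namely SSTP-1 (-1.15), ITPK3 (-0.69), COI1 (0.16), AOC3 (-0.94), BBI-1 (0.87), BZIP28 (0.98), BZIP77 (-0.85), FWL5 (-0.85), LUXC (0.70) and SGF14G (-0.98). A fit of the 6 R6 arrays alone lost the calls of HSP17.5-E, BZIP111, IFR, MS and MYB184 (adjusted p = 0.055 to 0.12). The test against a 2-fold change lost the calls of 87 of the genes named here and left 102 as they were. Among those lost were HSP17.5-E (adjusted p = 0.25) and SSTP-1 (adjusted p = 0.13). Further quantile normalization lost 4 calls, HSP90-1 (-0.99), MYB68 (0.97), IFR (adjusted p = 0.094) and MYB184 (adjusted p = 0.069). Log2 fold changes of the following genes, none of them called from all arrays, changed sign. With each array left out in turn they were -1.19 to 1.11 for HSP90A1, -0.57 to 1.1 for HSP22.3, -0.49 to 0.60 for NDHK, -0.31 to 0.16 for EIN4, -0.14 to 0.31 for CYP90A15, -0.0047 to 0.41 for ADR12, -0.024 to 0.11 for BIN2, -0.15 to 0.18 for IPK2, -0.077 to 0.14 for ITPK4, -0.14 to 0.24 for SGR, -0.065 to 0.057 for KTI3 and -0.00061 to 0.065 for GY2. The ends opposite in sign to the value from all arrays came without stressed replicate 3 for HSP90A1, HSP22.3, NDHK, EIN4, BIN2 and KTI3. Array weights, which gave stressed replicate 3 the lowest weight, gave -0.92 for HSP90A1, -0.49 for HSP22.3, 0.51 for NDHK, 0.22 for EIN4, -0.047 for BIN2, 0.14 for ITPK4, 0.055 for KTI3, -0.17 for IPK2 and 0.0052 for P34. A further quantile normalization gave -0.17 for CYP90A15, 0 for GY1, -0.0072 for GY2 and -0.0074 for IPK2, and centred medians gave -0.017 for IPK2. The difference between the R8 and R6 responses of BMY2, not called, became -0.040 without stressed replicate 3. Apart from the arrays left out, the causes were not tested. Precision is limited by 3 arrays a group, by signals near the background of 0.863 and by the strongest signals of the storage proteins.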
